A study of Mus musculus with 4 samples.

Results

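Immunosuppressive mediators of mesenchymal stroma cells (MSCs) are the enzymes, surface ligands and secreted proteins through which stroma cells are known to restrain T cells, and 10 of their genes were examined here: *Nos2*, *Ido1*, *Ptgs2*, *Ptges*, *Tnfaip6*, *Hmox1*, *Il1rn*, *Cd274*, *Pdcd1lg2* and *Lgals1*. The spots were taken by name, as those whose accession belongs to one of these symbols. The choice of the genes was made with earlier results of these data known, so their counts below describe them and are no independent evidence. They were represented by 13 of 56605 probes and made up 10 of the 22911 genes named on the array, each probe being printed as 1 spot.

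RNA was compared between 2 cell populations sorted from tumors of wild-type (Wt) and *Sipa1*-/- mice. *Sipa1* encodes a GTPase-activating protein that turns off Rap1, and the knockout was present in every cell of the host, so that MSCs, T cells and all other host cells lacked it together, while the injected leukemia cells did not. All hosts were C57BL/6Ncr mice at 8 weeks of age, 5 per genotype, which had received 15000 Bcr-abl+ hematopoietic progenitor cells (GFP+, of Wt origin and carrying retroviral p210 Bcr-Abl) in Matrigel under the skin, and the tumors were taken on day 12. The MSC gate was GFP- CD45- Ter119- CD31-, a gate defined by what the cells lack, and the CD8 gate was GFP- TCRb+ CD8+. The 4 groups were therefore MSCs from Wt hosts, MSCs from *Sipa1*-/- hosts, CD8+ T cells from Wt hosts and CD8+ T cells from *Sipa1*-/- hosts, with 1 array each. How the 5 mice contributed to each array is not stated. With 1 array per group no difference has a replicate check, so no p-value or standard error is given, and every value compares these 4 RNA samples rather than the genotypes or cell types at large. In a bulk sample, fewer cells of a type and less RNA per cell cannot be told apart.

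MSCs respond to inflammatory cytokines, above all interferon gamma together with TNF or IL-1, by switching on a program that limits T-cell proliferation. Its metabolic arm consumes amino acids and releases small molecules: inducible nitric oxide synthase (*Nos2*) uses arginine, indoleamine 2,3-dioxygenase (*Ido1*) uses tryptophan, cyclooxygenase-2 and microsomal prostaglandin E synthase (*Ptgs2* and *Ptges*) make prostaglandin E2, and heme oxygenase-1 (*Hmox1*) breaks heme down to carbon monoxide, iron and biliverdin. Its surface arm presents the PD-1 ligands PD-L1 (*Cd274*) and PD-L2 (*Pdcd1lg2*), and its secreted arm includes galectin-1 (*Lgals1*), the hyaluronan-binding protein TSG-6 (*Tnfaip6*) and the IL-1 receptor antagonist (*Il1rn*). Mouse MSCs are known for relying on nitric oxide where human MSCs rely on tryptophan breakdown.

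Promoter sequence was at hand for 6 of the 10 genes (*Cd274*, *Il1rn*, *Pdcd1lg2*, *Ptges*, *Ptgs2* and *Tnfaip6*), in 8 windows from RefSeq on GRCm38.p6, each running from 250 bases before the transcription start to 50 after it. The 250 bases before the start are shown for 3 of them, *Tnfaip6* as the mediator with the largest ratio between the MSC samples, *Ptgs2* as the one that moved in opposite directions in the 2 populations, and *Cd274* as a well-known interferon target. Capitals mark matches to the searched motifs, and all sequences read 5' to 3' toward the gene.

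*Tnfaip6*, chr2:52037863-52038112, plus strand: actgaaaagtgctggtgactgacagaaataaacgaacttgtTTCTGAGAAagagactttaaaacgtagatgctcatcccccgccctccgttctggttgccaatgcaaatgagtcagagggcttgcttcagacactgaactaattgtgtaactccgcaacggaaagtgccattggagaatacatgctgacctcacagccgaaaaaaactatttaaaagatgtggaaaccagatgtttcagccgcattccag
*Ptgs2*, chr1:150099781-150100030, plus strand: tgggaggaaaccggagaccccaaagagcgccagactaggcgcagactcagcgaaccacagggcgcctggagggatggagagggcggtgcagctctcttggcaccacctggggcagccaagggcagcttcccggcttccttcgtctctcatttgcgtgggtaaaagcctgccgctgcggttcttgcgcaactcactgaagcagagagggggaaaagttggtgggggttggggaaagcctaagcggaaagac
*Cd274*, chr19:29367188-29367437, plus strand: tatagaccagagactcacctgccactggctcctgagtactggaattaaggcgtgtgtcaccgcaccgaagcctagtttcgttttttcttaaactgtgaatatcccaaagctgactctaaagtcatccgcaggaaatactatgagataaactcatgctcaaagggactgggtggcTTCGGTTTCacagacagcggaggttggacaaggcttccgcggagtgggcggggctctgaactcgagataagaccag

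The motifs were searched on both strands in the whole 300-base windows. The interferon gamma-activated site, TTCNNNGAA, occurred in 1 of the 8 windows, that of *Tnfaip6*, 209 bases before its start, and in 8.30% of all 32851 windows. The interferon-stimulated response element, GAAANNGAA, occurred in that of *Cd274*, on the opposite strand and 76 bases before the start, and in 8.56% of all windows. TATAAA was found in 1 of the 3 *Il1rn* windows, after the start, and in 13.6% of all windows. The NF-kappa B site GGANTTTCC, the antioxidant response core TGACNNNGC and the cyclic AMP response element TGACGTCA were in 0 of the 8 windows, against 1.25%, 12.4% and 1.79% of all windows. These matches describe letters in the windows and were not tied to binding.

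Each array had 59305 spots that were not controls, of which 60.3% to 65.3% were well above background and 0 were saturated. Levels are given as log2 of the background-corrected spot signal minus the 75th percentile of that array, so that 0 is the level of a fairly bright spot and a log2 ratio of 1 is a 2-fold difference. Levels of different probes cannot be ranked against each other, because probes differ in how well they bind. Among 300 probes printed at least 10 times, the *Sipa1*-/- over Wt log2 ratio varied between spots with a median SD of 0.061 (MSC arrays) and 0.057 (CD8+ T-cell arrays), or 0.151 and 0.157 for the 15 and 12 of these probes whose mean level lay below 0. This is the error of the spots alone and holds nothing of the difference between mice. The *Sipa1* probes went from 3.05 to 1.46 and from 5.03 to 3.78 in MSCs, and from 3.43 to 1.39 and from 5.40 to 3.73 in CD8+ T cells, lower in the knockout but well above background on all arrays.

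The labels were set against marker genes. On the Wt and *Sipa1*-/- CD8+ T-cell arrays the T-cell markers *Cd3d* (6.95 and 6.88), *Nkg7* (7.19 and 7.33) and *Cd8b1* (7.29 and 7.41) were bright, and 14 of 15 T-cell markers were measured with a median log2 ratio of 0.06. On the MSC arrays the fibroblast genes *Col1a2* (8.56 in Wt and 8.91 in *Sipa1*-/-) and *Dcn* (7.71 and 8.57) were bright, but other RNA differed between the pair. B-lineage markers were at least 2-fold lower in *Sipa1*-/- MSCs for 14 of 14 measured genes (median log2 ratio -4.14), their summed linear level being 693 in Wt and 43.1 in *Sipa1*-/- MSCs, with *Vpreb1* at 7.57 and 3.45. Genes common to leukocytes were lower for 9 of 10 (median -1.99, summed level 184 and 53.3), although the gate leaves out CD45+ cells. Fibroblast markers were at least 2-fold higher in *Sipa1*-/- MSCs for 13 of 17 measured genes (median 1.65), with a summed level of 1186 in Wt and 2265 in *Sipa1*-/- MSCs. RNA of other lineages was bright on both MSC arrays. Granulocyte markers had summed levels of 737 in Wt and 830 in *Sipa1*-/- MSCs, with *S100a9* at 8.40 and 8.50. Erythroid markers had 392 and 405, with *Hba-a1* at 8.30 and 8.39. The parts that this RNA and the differences in cell makeup have in the values of the mediators and of all other genes below were not tested.

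In MSCs, most of the mediators were higher in the *Sipa1*-/- sample. Of the 9 that could be measured on both arrays, 8 had a log2 ratio above 0 and 6 were at least 2-fold higher, namely *Tnfaip6*, *Nos2*, *Hmox1*, *Pdcd1lg2*, *Ptges* and *Ptgs2*, while none was 2-fold lower and *Ido1* was not well above background on either array. The 6 make up 66.7% of the measured mediators, against 19.3% of all 15298 measured genes past 2-fold in that direction and 11.3% past it in the other. The median log2 ratio of the 9 was 1.15, against 0.04 over all genes, and the range ran from -0.33 for *Il1rn* to 2.62 for *Tnfaip6*. The same genes did otherwise in CD8+ T cells, with 0 of 9 past 2-fold upward, 2 past it downward (*Ptgs2* and *Il1rn*) and a median of 0.16 against -0.02 over all genes. Of all 14339 genes measured there, 2.66% were higher by this threshold and 1.40% lower. The counts of each pathway list below are to be read against these shares of all genes, 19.3% and 11.3% in MSCs and 2.66% and 1.40% in CD8+ T cells.

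**Figure D1:**
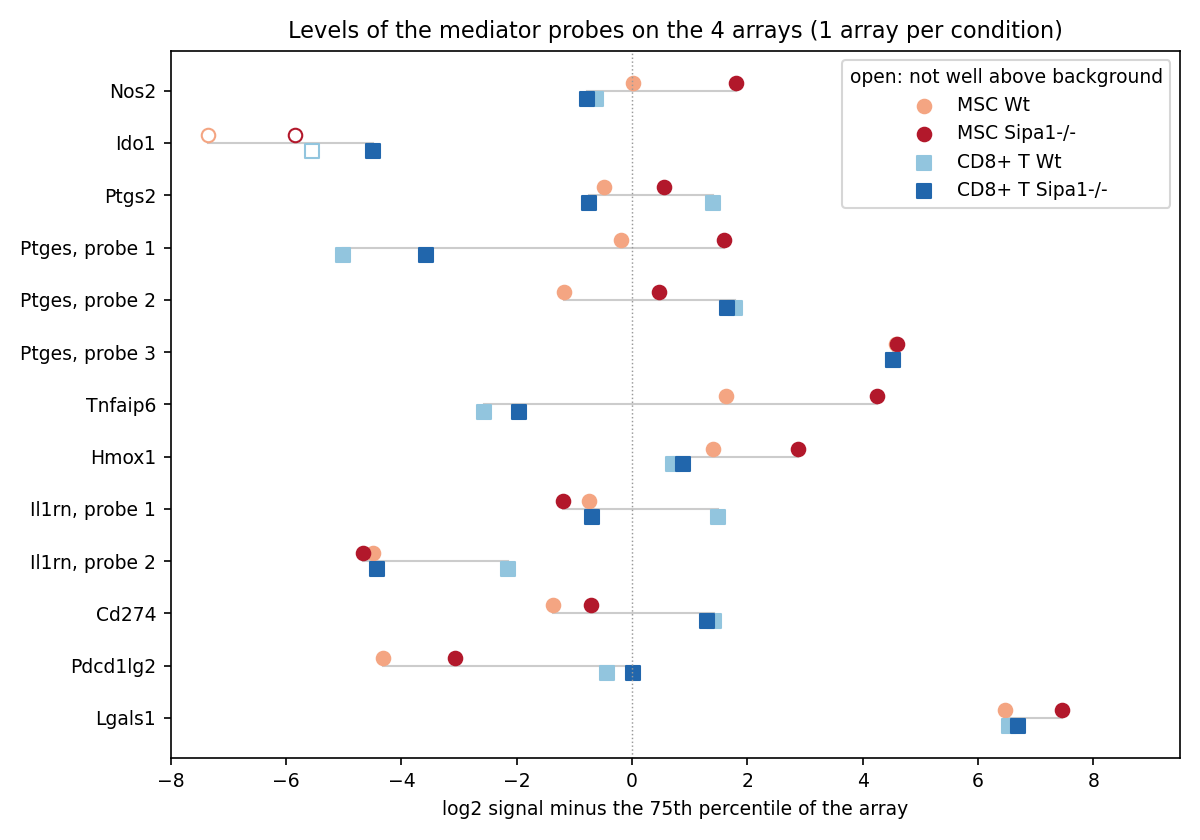
Levels of the 13 mediator probes (rows) as log2 signal minus the 75th percentile of the array (horizontal axis), with circles for MSCs, squares for CD8+ T cells, paler symbols for Wt and darker ones for *Sipa1*-/-, and open symbols where the spot was not well above background. *Tnfaip6*, *Nos2*, *Hmox1* and *Lgals1* are highest in *Sipa1*-/- MSCs, *Ptgs2* and both *Il1rn* probes are highest in Wt CD8+ T cells, and *Ido1* is open on 3 of the 4 arrays.

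**Figure D2:**
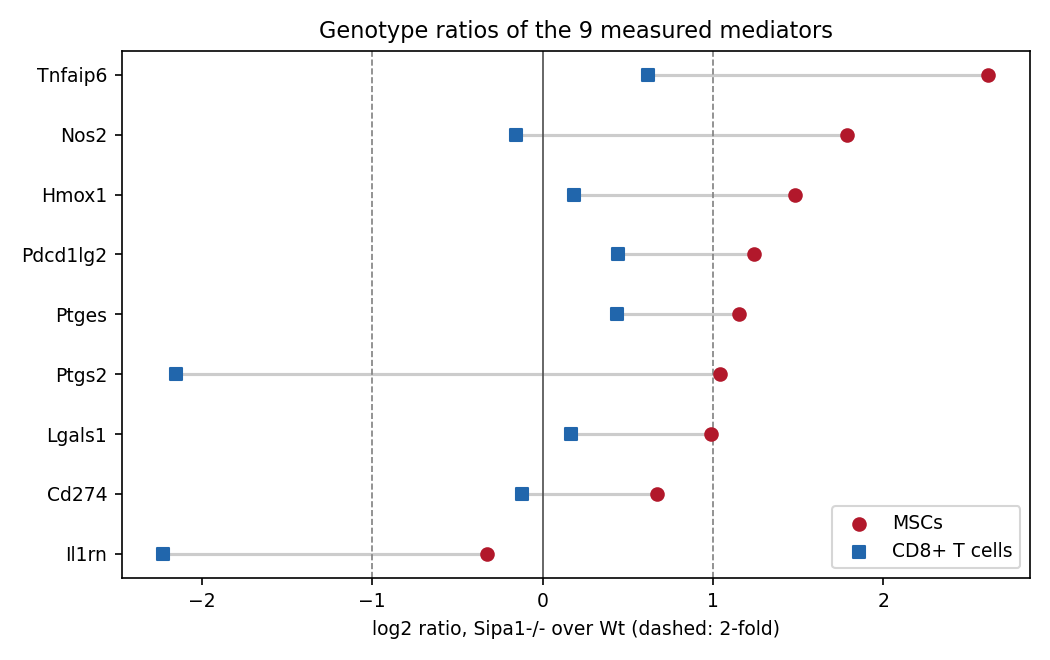
Log2 ratio of *Sipa1*-/- to Wt (horizontal axis) for the 9 mediators that were measured in both populations, with circles for MSCs and squares for CD8+ T cells and dashed lines at 2-fold. Each point is 1 pair of arrays, so there are no error bars. In MSCs 8 of the 9 circles lie above 0, and in CD8+ T cells *Ptgs2* and *Il1rn* lie below -1.

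Among the metabolic enzymes, *Nos2*, the inducible nitric oxide synthase, stood at 0.01 in Wt MSCs, 1.80 in *Sipa1*-/- MSCs, -0.62 in Wt CD8+ T cells and -0.78 in *Sipa1*-/- CD8+ T cells. *Sipa1*-/- MSCs were thus alone in a high level, 3.45-fold above Wt MSCs (log2 ratio 1.79), while the CD8+ T-cell pair differed by -0.16, which is close to the spot error for probes of that brightness. *Nos2* competes with arginase for arginine. Of 12 further genes for arginine and nitric oxide handling, 3 of the 10 measured in MSCs were at least 2-fold higher, 0 were lower and the median log2 ratio was 0.11. These were arginase-1 (*Arg1*, -3.00 in Wt and 0.05 in *Sipa1*-/- MSCs, log2 ratio 3.05), the cationic amino acid transporter *Slc7a2* (-4.95 and -1.97, log2 ratio 2.98) and *Ddah1*, which degrades methylarginines that inhibit nitric oxide synthases (-1.09 and 0.57, log2 ratio 1.66). Argininosuccinate synthase, which regenerates arginine, and the cofactor enzymes *Gch1* and *Qdpr* all lay within 2-fold. Macrophages also express *Nos2*, *Arg1* and *Hmox1*, and their markers were at least 2-fold higher in *Sipa1*-/- MSCs for 7 of 13 measured genes (median 1.04), with a summed level of 17.5 in Wt and 32.7 in *Sipa1*-/- MSCs and with *Cd163* not above background in Wt. The part of macrophage RNA in these ratios was not tested.

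*Ido1*, the interferon-inducible enzyme that opens tryptophan, was not well above background in MSCs of either genotype nor in Wt CD8+ T cells. It was above background in *Sipa1*-/- CD8+ T cells alone, at a level of -4.50. This was 2.08-fold above the probe's own reading in Wt CD8+ T cells. It was 2.45-fold above the dimmest spot well above background on the *Sipa1*-/- MSC array. Neither value is a firm lower limit, because a reading not well above background is uncertain in both directions. This is a very dim probe, with no replicate to set it against. In the same CD8+ T-cell pair, dendritic cell markers had a log2 ratio above 0 for 12 of 12 genes (median 0.43), 1 of them at least 2-fold higher. Their summed level was 271 in Wt and 362 in *Sipa1*-/- CD8+ T cells. The part of dendritic cell RNA in the *Ido1* value was not tested. Of 10 other genes of the tryptophan and kynurenine pathway, 8 were measured in MSCs, 1 was at least 2-fold higher, 2 were lower and the median was -0.04. Of all genes 19.3% were higher and 11.3% lower, so the share that was higher lay below that of all genes. The higher one was *Tdo2*, another enzyme that catalyzes the same opening step (-4.10 in Wt and -1.55 in *Sipa1*-/- MSCs, log2 ratio 2.54). The lower ones were the downstream enzymes *Kmo* (-2.32 and -4.19, log2 ratio -1.88) and *Haao* (-0.46 and -1.85, log2 ratio -1.39). B-lineage markers and genes common to leukocytes were lower in the same MSC pair, as given above, and their part in these 2 values was not tested. None of the 9 genes of this list measured in CD8+ T cells passed 2-fold either way.

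*Hmox1* stood at 1.40 in Wt MSCs, 2.88 in *Sipa1*-/- MSCs, 0.71 in Wt CD8+ T cells and 0.89 in *Sipa1*-/- CD8+ T cells. It was 2.80-fold higher in *Sipa1*-/- than in Wt MSCs (log2 ratio 1.48), and the CD8+ T-cell pair differed by 0.18. The wider heme and antioxidant list had 2 of 14 measured genes at least 2-fold higher in *Sipa1*-/- MSCs, 1 lower and a median of 0.20. Both shares lay below the 19.3% and 11.3% of all genes. *Srxn1*, a sulfiredoxin and target of the antioxidant factor Nrf2, had a log2 ratio of 1.56 (1.25 in Wt and 2.81 in *Sipa1*-/- MSCs), and *Bach1*, a repressor of *Hmox1* transcription, had one of 1.13 (1.05 and 2.18). *Gclc*, the catalytic subunit of the glutathione-synthesis enzyme and another Nrf2 target, was lower at -1.40 (2.72 and 1.32). The heme-recycling genes *Blvra* and *Blvrb* and the ferritin chains *Fth1* and *Ftl1* were within 2-fold.

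The prostaglandin E2 pair behaved less evenly. *Ptgs2*, the inducible cyclooxygenase, stood at -0.49 in Wt MSCs, 0.55 in *Sipa1*-/- MSCs, 1.40 in Wt CD8+ T cells and -0.75 in *Sipa1*-/- CD8+ T cells. The *Sipa1*-/- sample was 2.06-fold higher in MSCs (log2 ratio 1.04) and 4.45-fold lower in CD8+ T cells (log2 ratio -2.15). The MSC ratio sits at the threshold and falls to 0.90 with arrays centred on the median and to 0.94 with another background correction, whereas the CD8+ T-cell ratio stayed past 2-fold, from -2.30 to -1.96, under the alternatives that kept the gene. Of 13781 genes measured in both populations, 22 passed 2-fold in opposite directions, 18 of them higher in *Sipa1*-/- MSCs and lower in *Sipa1*-/- CD8+ T cells, and *Ptgs2* was the one mediator among them.

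*Ptges* has 3 probes, which gave different pictures. The first, A_51_P312327, stood at -0.20 in Wt MSCs, 1.59 in *Sipa1*-/- MSCs, -5.02 in Wt CD8+ T cells and -3.57 in *Sipa1*-/- CD8+ T cells. The second, A_55_P1974189, stood at -1.19, 0.47, 1.78 and 1.65 in the same order, and the third and brightest, A_55_P1974193, at 4.58, 4.59, 4.54 and 4.53. The first and second therefore share a higher level in *Sipa1*-/- MSCs (log2 ratios 1.79 and 1.66) but put the 2 cell types in opposite order, and the third hardly moved across the 4 samples (log2 ratio 0.01 in MSCs). The gene's mean over probes was 1.07, 2.22, 0.43 and 0.87, so that its log2 ratio was 1.15 for the MSC pair and 0.44 for the CD8+ T-cell pair, and the mean describes none of the 3 well. Whether *Ptges* counts among the genes past 2-fold in MSCs depends on the probe taken.

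**Figure D3:**
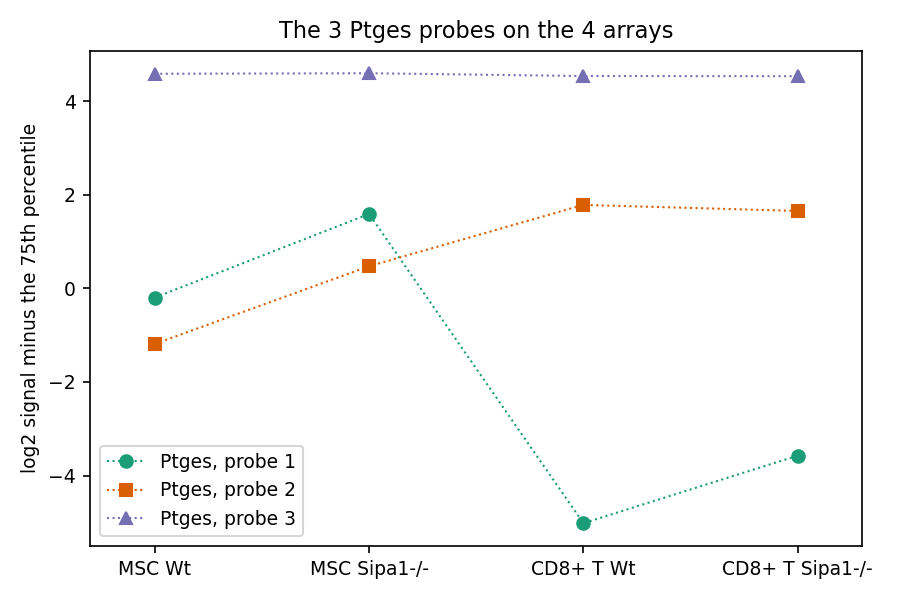
Level of each *Ptges* probe (vertical axis, log2 signal minus the 75th percentile of the array) in the 4 samples (horizontal axis), where probes 1, 2 and 3 are A_51_P312327, A_55_P1974189 and A_55_P1974193, and dotted lines join the values of a probe for the eye. Probes 1 and 2 are both higher in *Sipa1*-/- than in Wt MSCs and part in CD8+ T cells, and probe 3 stays between 4.53 and 4.59.

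Of 14 other genes of the prostaglandin pathway, 12 were measured in MSCs, of which 6 were at least 2-fold higher in *Sipa1*-/-, 1 was lower and the median log2 ratio was 0.87. Prostacyclin synthase (*Ptgis*) stood at 0.97 in Wt and 3.47 in *Sipa1*-/- MSCs (log2 ratio 2.50), the constitutive cyclooxygenase *Ptgs1* at -0.54 and 1.19 (1.73), and the prostaglandin uptake carrier *Slco2a1* at 0.24 and 1.51 (1.26). *Hpgd*, which inactivates prostaglandin E2, and *Pla2g4a*, which frees arachidonic acid for the cyclooxygenases, were also higher, with log2 ratios of 1.18 and 1.02, and were named here after their values were seen. The list thus held genes for making, carrying and clearing prostaglandins among those that were higher. Fibroblast markers had a median of 1.65 in the same comparison, with 13 of 17 at least 2-fold higher. The part of fibroblast RNA in the prostaglandin values was not tested. Of 11 genes measured in CD8+ T cells, 1 was at least 2-fold higher and 0 were lower, the one being *Ptgis* (-2.57 in Wt and -0.38 in *Sipa1*-/-, log2 ratio 2.19).

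Among the checkpoint ligands, *Cd274* (PD-L1) stood at -1.38 in Wt MSCs, -0.71 in *Sipa1*-/- MSCs, 1.42 in Wt CD8+ T cells and 1.30 in *Sipa1*-/- CD8+ T cells. *Pdcd1lg2* (PD-L2), its neighbor with 0 protein-coding genes between them, stood at -4.31, -3.07, -0.43 and 0.01. Both were higher in the CD8+ T-cell samples than in MSCs in either genotype. Dendritic cells also express both ligands, and their markers went the same way, at least 2-fold lower in MSCs for 10 of 11 measured genes in each genotype (medians -3.79 in Wt and -3.19 in *Sipa1*-/- hosts), with summed levels of 30.7 and 52.7 in MSCs and 271 and 362 in the CD8+ T-cell samples. The part of dendritic cell RNA in the ligand values was not tested. Between genotypes, both ligands were somewhat higher in *Sipa1*-/- than in Wt MSCs, *Cd274* by 1.59-fold (log2 ratio 0.67) and *Pdcd1lg2* by 2.36-fold (log2 ratio 1.24). The *Pdcd1lg2* spots were dim in MSCs, and with the other background correction its log2 ratio was 0.49. The *Sipa1*-/- over Wt log2 ratios of the CD8+ T-cell pair were -0.12 for *Cd274*, which turned to 0.01 in the series matrix, and 0.44 for *Pdcd1lg2*. The dendritic cell markers had median log2 ratios of 0.45 in the MSC pair and 0.43 in the CD8+ T-cell pair.

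Many of the other checkpoint genes were higher as well. Of 15 other ligands and receptors, 14 were measured, 8 were at least 2-fold higher in *Sipa1*-/- MSCs, 0 were lower, and the median was 1.09. The 8 included *Cd28* (log2 ratio 1.19) and *Pdcd1* (1.02), named here after their values were seen. These were 176-fold and 99.3-fold higher in Wt CD8+ T cells than in Wt MSCs. In the MSC pair T-cell markers were at least 2-fold higher for 5 of 13 genes and lower for 4, and fibroblast markers higher for 13 of 17. The parts of T-cell and fibroblast RNA in this list were not tested. *Rgmb*, a further ligand of PD-L2, stood at -5.51 in Wt and -3.25 in *Sipa1*-/- MSCs (log2 ratio 2.26). Its Wt value lay close to -5.86, the dimmest level well above background on that array. *Cd276* (B7-H3) stood at -0.95 and 1.20 (2.15), and *Pvr*, the ligand of TIGIT and CD226, at 0.47 and 2.18 (1.71). Of 14 measured in CD8+ T cells, 2 were at least 2-fold higher and 0 lower (median 0.20). The 2 were PD-1 itself (*Pdcd1*, 2.03 in Wt and 3.13 in *Sipa1*-/-, log2 ratio 1.10), the receptor for both ligands above, and *Cd276* (-4.79 and -3.76, log2 ratio 1.03). *Cd276* was 31.1-fold higher in *Sipa1*-/- MSCs than in *Sipa1*-/- CD8+ T cells. Fibroblast markers were at least 2-fold higher in this CD8+ T-cell pair for 17 of 18 measured genes. The part of fibroblast RNA in the *Cd276* value was not tested.

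Among the secreted mediators, *Tnfaip6* (TSG-6) stood at 1.63 in Wt MSCs, 4.25 in *Sipa1*-/- MSCs, -2.57 in Wt CD8+ T cells and -1.96 in *Sipa1*-/- CD8+ T cells. It was 6.14-fold higher in *Sipa1*-/- than in Wt MSCs, the largest ratio among the mediators (log2 ratio 2.62), and 0.62 higher on the log2 scale in *Sipa1*-/- CD8+ T cells. TSG-6 carries heavy chains of inter-alpha-inhibitor onto hyaluronan and binds versican and pentraxin-3. Of 14 genes for hyaluronan and these partners, 10 were measured in MSCs, of which 7 were at least 2-fold higher in *Sipa1*-/-, 0 lower, with a median of 1.34. Hyaluronan synthase *Has1* stood at 0.08 in Wt and 2.69 in *Sipa1*-/- MSCs (log2 ratio 2.61), versican (*Vcan*) at -0.96 and 0.89 (1.85), and *Itih5*, of the inter-alpha-inhibitor heavy chain family, at 1.83 and 3.33 (1.50). TSG-6 and hyaluronan genes are themselves expressed by fibroblasts. The fibroblast markers had a median of 1.65 in the same comparison, with 13 of 17 at least 2-fold higher but the bright *Col1a2* at 0.35 and *Dcn* at 0.86. The part of fibroblast RNA in these ratios was not tested. *Has1* was the one gene of 8 measured in CD8+ T cells past 2-fold (-5.15 and -3.75, log2 ratio 1.40), and 0 were lower. Its Wt value there lay close to -5.56, the dimmest level well above background on that array.

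*Lgals1*, galectin-1, was bright in all 4 samples, at 6.46 in Wt MSCs, 7.45 in *Sipa1*-/- MSCs, 6.54 in Wt CD8+ T cells and 6.70 in *Sipa1*-/- CD8+ T cells. The other 3 samples lay between 6.46 and 6.70 while *Sipa1*-/- MSCs stood 1.99-fold above Wt MSCs (log2 ratio 0.99), so it fell just short of 2-fold and passed it with quantile normalization (1.25) and in the series matrix (1.20). Its log2 ratio was 0.16 between the CD8+ T-cell samples. Of 8 other genes of the galectin list, 7 were measured in MSCs, 3 were at least 2-fold higher, 1 was lower and the median was 0.27. *Lgals3* had a log2 ratio of 1.33 (3.30 in Wt and 4.64 in *Sipa1*-/- MSCs) and the galectin-3-binding glycoprotein *Lgals3bp* one of 1.08 (4.66 and 5.75). *Lgals9*, which binds the checkpoint receptor TIM-3, went the other way at -1.15 (3.36 and 2.21). The part of B-lineage and other leukocyte RNA, lower in the same MSC pair, in the *Lgals9* value was not tested. None of 6 genes of the galectin list measured in CD8+ T cells passed 2-fold.

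*Il1rn*, which blocks the IL-1 receptor without activating it, was the one measured mediator that was not higher in *Sipa1*-/- MSCs. Its 2 probes read -0.74 and -4.48 in Wt MSCs, -1.20 and -4.67 in *Sipa1*-/- MSCs, 1.48 and -2.15 in Wt CD8+ T cells, and -0.69 and -4.43 in *Sipa1*-/- CD8+ T cells. Both probes put Wt CD8+ T cells well above the other 3 samples, with log2 ratios of -2.17 and -2.28 between the CD8+ T-cell samples. The gene was 4.68-fold lower in *Sipa1*-/- CD8+ T cells (log2 ratio -2.23), and with the other background correction its log2 ratio was -1.38. In MSCs the gene's log2 ratio was -0.33. The IL-1 family list had 3 of 14 measured genes at least 2-fold higher in *Sipa1*-/- MSCs, a share close to the 19.3% of all genes, 1 lower and a median of 0.39. The inhibitory receptor *Sigirr* had a log2 ratio of -3.21 (1.69 in Wt and -1.52 in *Sipa1*-/-), the signaling receptor *Il1r1* one of 1.42 and the alarmin *Il33* one of 1.18 (1.42 and 2.60). B-lineage markers were at least 2-fold lower for 14 of 14 measured genes in the same MSC pair (median -4.14). Genes common to leukocytes were lower for 9 of 10, and the part of this RNA in the *Sigirr* value was not tested.

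In CD8+ T cells the same list had 2 of 14 genes at least 2-fold higher and 3 lower. The decoy receptor *Il1r2* stood at 2.10 in Wt and -0.22 in *Sipa1*-/- CD8+ T cells (log2 ratio -2.32), and the cytokine *Il1b* at 3.91 and 1.60 (-2.31), which places both beside *Ptgs2* and *Il1rn* in size and direction. These 4 genes are known to be abundant in activated granulocytes and monocytes. Granulocyte markers were at least 2-fold lower in *Sipa1*-/- CD8+ T cells for 9 of 12 measured genes (median -1.30), with a summed level of 644 in Wt and 339 in *Sipa1*-/- and with *S100a9* at 8.38 and 7.33 and *S100a8* at 6.99 and 5.52. Macrophage markers were lower for 1 of 14, *Cd14*, with a summed level of 39.8 and 32.6. The gate takes TCRb+ CD8+ cells, and the part of granulocyte or monocyte RNA in the *Ptgs2* and *Il1rn* values was not tested. Fibroblast markers moved the other way, at least 2-fold higher in *Sipa1*-/- CD8+ T cells for 17 of 18 (median 1.61, summed level 213 in Wt and 321 in *Sipa1*-/-), and *Has1*, *Ptgis* and *Tnfaip6*, which fibroblasts express, were higher with them to the extent given above.

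The cytokines that induce the mediators, with their receptors and signal carriers, formed a further list. Of 15 genes of the interferon gamma and TNF list, all were measured in MSCs, 3 were at least 2-fold higher, a share close to the 19.3% of all genes, 0 were lower and the median was 0.50. They were the TNF receptor *Tnfrsf1a* (1.46 in Wt and 3.02 in *Sipa1*-/- MSCs, log2 ratio 1.56), *Ifng* (-3.19 and -2.09, 1.10) and the feedback inhibitor *Socs3* (4.02 and 5.07, 1.04). *Ifng* is made by T cells. On the same arrays T-cell markers were at least 2-fold higher in *Sipa1*-/- MSCs for 5 of 13 measured genes, among them *Cd3d* (1.10) and *Cd8b1* (1.31). They were lower for 4, *Cd2* (4.08 in Wt and 0.56 in *Sipa1*-/- MSCs, log2 ratio -3.52), *Lat* (-2.69), *Zap70* (-1.59) and *Lck* (-1.07). These 4 were named here after their values were seen. The T-cell markers had a median of 0.69 and summed levels of 24.0 in Wt and 7.37 in *Sipa1*-/- MSCs. The part of T-cell RNA in the *Ifng* value was not tested. None of 15 passed 2-fold in CD8+ T cells. Other factors by which MSCs act on immune cells had the highest median of the 10 pathway lists, 1.48, with 9 of 13 at least 2-fold higher in *Sipa1*-/- MSCs and 1 lower. The fibroblast markers, with the spread given above, had a median of 1.65, and the part of fibroblast RNA in this list was not tested. Among these other factors *Tgfb3* stood at 1.74 in Wt and 4.37 in *Sipa1*-/- MSCs (log2 ratio 2.63), *Il6* at -0.14 and 2.21 (2.35) and *Tgfb2* at -1.29 and 0.98 (2.27). The 1 that was lower was *Tgfb1* (0.66 and -1.46, log2 ratio -2.12), named here after its values were seen. The part of B-lineage and other leukocyte RNA, lower in the same MSC pair, in the *Tgfb1* value was not tested. Of 14 measured in CD8+ T cells, 5 were at least 2-fold higher and 0 lower, with *Il10* at -4.00 in Wt and -2.33 in *Sipa1*-/- (log2 ratio 1.67) and *Cxcl12* at -0.71 and 0.56 (1.27). Of the 5, *Cxcl12*, *Tgfb3* and *Tgfb2* were 20.1-fold, 30.3-fold and 65.2-fold higher in *Sipa1*-/- MSCs than in *Sipa1*-/- CD8+ T cells. *Il10* and *Entpd1*, the latter named here after its values were seen, were lower in those MSCs. Fibroblast markers were higher in the same CD8+ T-cell pair, as given above, and the part of fibroblast RNA in these values was not tested. Single genes past 2-fold in the metabolic lists in CD8+ T cells were *Arg2* (-2.30), *Arg1* (1.16), *Slc40a1* (-1.17) and *Srxn1* (1.00). Counting each gene of the pathway lists once, 45 of 117 measured genes (38.5%) were at least 2-fold higher in *Sipa1*-/- MSCs and 7 (5.98%) lower, against 19.3% and 11.3% of all genes. In *Sipa1*-/- CD8+ T cells 13 of 113 (11.5%) were higher and 5 (4.42%) lower, against 2.66% and 1.40% of all genes. The parts of fibroblast, granulocyte, B-lineage and other leukocyte RNA in these shares were not tested.

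**Figure D4:**
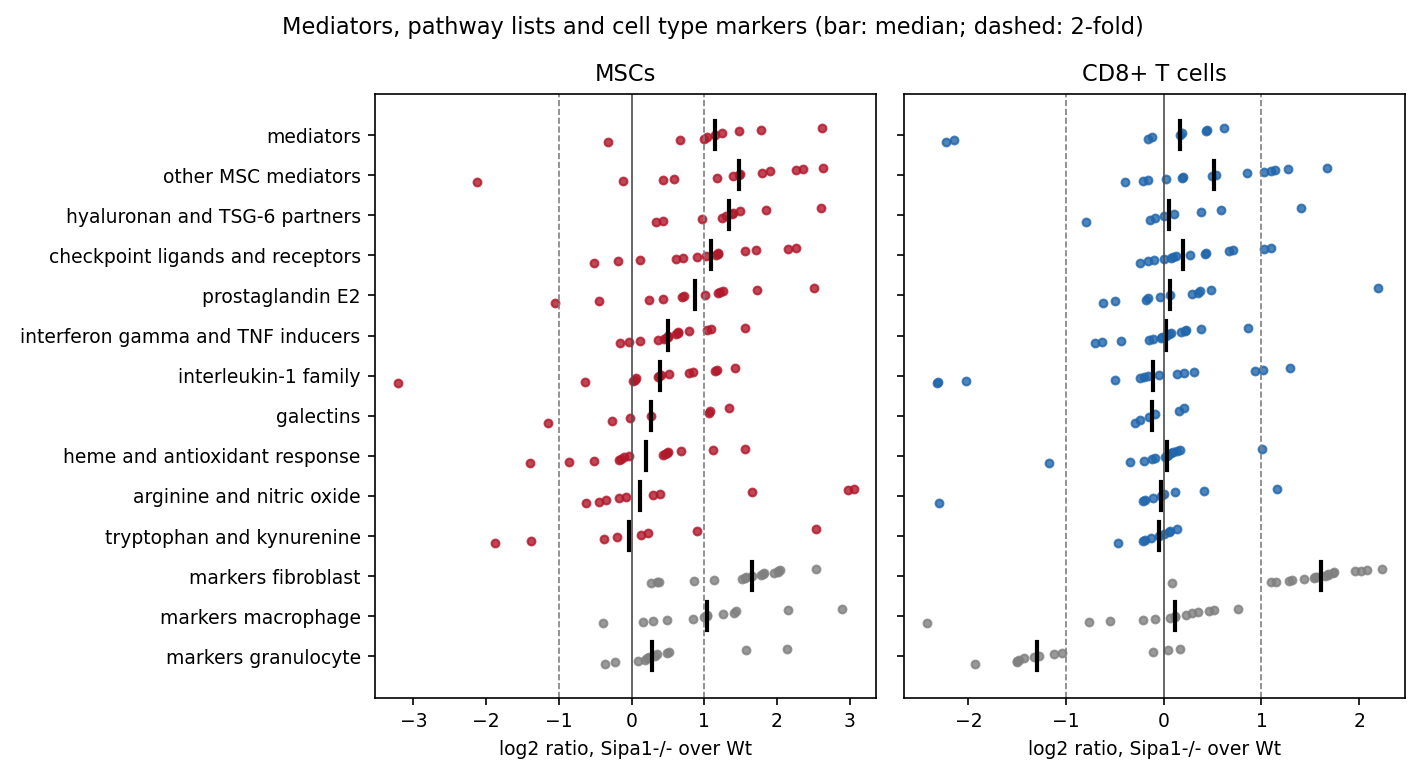
Log2 ratio of *Sipa1*-/- to Wt (horizontal axes) for each measured gene of the mediators, of the 10 pathway lists and, in grey, of 3 cell type marker lists (rows), in MSCs on the left and CD8+ T cells on the right, with a black bar at the median of each row and dashed lines at 2-fold. In MSCs the medians reach 1.48 for other MSC mediators and 1.65 for fibroblast markers, and in CD8+ T cells the granulocyte markers have a median of -1.30 and the fibroblast markers one of 1.61.

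The same arrays also set MSCs against CD8+ T cells within a genotype. These comparisons use the samples above again, so they are not independent of the genotype ratios. In Wt hosts 1 of 9 mediators was at least 2-fold higher in MSCs, *Tnfaip6* (18.5-fold), and 4 were lower (*Pdcd1lg2*, *Cd274*, *Il1rn* and *Ptgs2*), against 17.3% and 12.8% of all 14225 genes measured. Their median log2 ratio was -0.07, which turned positive with quantile normalization (0.47) and in the series matrix (0.38). In *Sipa1*-/- hosts 5 of 9 were at least 2-fold higher in MSCs and 2 were lower, against 21.9% and 18.7% of all 14300 genes, with a median of 1.30. The balance over all genes turned with the centring, since centring on the median gave 2083 higher and 2499 lower genes in Wt and 2791 and 3714 in *Sipa1*-/- hosts, in place of 2457 and 1821 and of 3131 and 2671. The 5 were *Tnfaip6* (74.0-fold), *Nos2* (log2 ratio 2.57), *Hmox1* (1.99), *Ptges* (1.35, with the probe conflict described above) and *Ptgs2* (1.30), and the 2 were *Pdcd1lg2* (8.49-fold lower) and *Cd274* (4.01-fold lower).

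The order of the samples therefore depended on the gene. By gene means, *Tnfaip6* was at least 2-fold higher in MSCs in both genotypes, as were *Nos2*, *Hmox1* and *Ptges* in the series matrix, and the PD-1 ligands, with the dendritic cell markers given above, were at least 2-fold higher in the CD8+ T-cell samples in both. Of the *Ptges* probes, the first was 28.2-fold and 35.8-fold higher in MSCs in Wt and *Sipa1*-/- hosts, and the second was at least 2-fold higher in CD8+ T cells in both. *Nos2* and *Hmox1* lay within 2-fold between the cell types in Wt hosts (log2 ratios 0.63 and 0.69) and past it in *Sipa1*-/- hosts. *Ptgs2* changed sides, from a log2 ratio of -1.89 in Wt hosts to 1.30 in *Sipa1*-/- hosts, and *Il1rn* went from -2.28 to -0.38. Of the 12 probes outside *Ido1*, 6 were highest in *Sipa1*-/- MSCs, 5 in Wt CD8+ T cells, 1 in *Sipa1*-/- CD8+ T cells and 0 in Wt MSCs. The same shares over all probes were not computed, so these counts describe the 12 probes and do not set them apart from others. Many neighbors in these orders lay too close for 1 array per sample to separate them, with 12 of 36 neighboring pairs under 0.2 apart on the log2 scale. They were the CD8+ T-cell samples for *Cd274*, *Nos2*, *Hmox1* and the second *Ptges* probe, Wt MSCs and both CD8+ T-cell samples for *Lgals1*, and all 4 samples for the third *Ptges* probe, whose place among those highest in *Sipa1*-/- MSCs rests on a difference of 0.01. For *Il1rn* they were Wt MSCs and *Sipa1*-/- CD8+ T cells on both probes, and the MSC samples on the dimmer one.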

How the data were processed

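RNA of 4 sorted samples was hybridised to 1 one-color Agilent mouse array each, all on 1 slide and in 1 scan. The deposited scanner intensity values had been background-corrected by the authors with Feature Extraction (9.1 per the labels and 12.0.3.1 per the file headers), and the authors' series matrix holds these intensities times 1 constant per array. From these, log2 values were computed here from the deposited intensities and the 75th percentile of each array was subtracted. Following the methods, probes had to pass the saturation and non-uniformity flags (0) and both signal flags (1) on both arrays compared. Spots were averaged per probe and probes per gene. Accessions were matched to a RefSeq table for names (57.6% of spots). Past the threshold means a log2 ratio of at least 1 either way.

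Precision was taken from probes printed at least 10 times, and the number of arrays, 1 per group, limits it. Genes named are the 10 mediators, *Sipa1*, up to 3 genes past 2-fold per pathway list in MSCs and up to 2 in CD8+ T cells by size of ratio, and up to 3 bright genes of each marker list used. Pathway genes named within 2-fold, *Cd14* and *Cd163* fall outside this rule and were named after their values were seen. The mediators and the lists were chosen with earlier results of these data known. Alternatives were median centring, quantile normalization, the series matrix, normexp (offset 50) applied to median spot signals, 2 looser flag rules, 1 probe per gene (the brightest), and a limit to genes above the median of all signals. The calculation was tested on simulated data. Genotype medians of further marker lists were, in MSCs and CD8+ T cells, 0.45 and 0.43 (dendritic cell), 0.33 and -0.03 (endothelial), 0.85 and -0.09 (pericyte and smooth muscle), 0.48 and -0.06 (skeletal muscle), 0.75 and 0.03 (keratinocyte), 0.68 and 0.50 (adipocyte) and -0.29 and -1.05 (erythroid). In CD8+ T cells, B-lineage markers gave -0.14 and genes common to leukocytes -0.07, and in MSCs granulocyte markers gave 0.28 and T-cell markers 0.69. Calculations ran in Python 3.11.15 with numpy 2.4.6, pandas 2.3.3 and matplotlib 3.10.9, and in R 4.3.3 with limma 3.58.1.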

Additional observations from a re-analysis of the deposited data

Results flagged for a closer look

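*Ptgs2* had a log2 ratio of *Sipa1*-/- to Wt of 1.04 in MSCs and of -2.15 in CD8+ T cells, so the single pairs of arrays went opposite ways past 2-fold in the 2 cell populations. The difference between them was not tested, since each group has 1 array.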

How the results depend on the processing

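No paired analysis was possible because each group has 1 array and the groups share 1 replicate number. Values from 1 array per group have no test, so the limit of these data is their number. For dim probes it is also the signal over background. Among these were *Ido1*, *Pdcd1lg2* in MSCs, 1 *Il1rn* probe, *Rgmb* in Wt MSCs, and *Has1* and *Cd276* in Wt CD8+ T cells. In MSCs the mediators' median log2 ratio of 1.15 was 1.01 with median centring, 1.36 in the series matrix, 0.99 with normexp, 1.04 with the brightest probe and 1.32 among genes above the median signal. The number at least 2-fold higher, 6, ranged from 4 to 7 over the alternatives. In CD8+ T cells the median of 0.16 was 0.017 with median centring, 0.30 in the series matrix and -0.0041 with the brightest probe, the number at least 2-fold higher went from 0 to 1 (*Ido1*) with flags on 1 array or no flags, and the number lower from 2 to 1 among genes above the median signal. For MSCs over CD8+ T cells in Wt hosts, the median of -0.07 was -0.30 with median centring, 0.47 with quantile normalization, 0.38 in the series matrix, -0.94 with no flags and 0.28 among genes above the median signal. The number higher there went from 1 to 4 in the series matrix and to 0 among genes above the median signal, which also took the number lower from 4 to 2. In *Sipa1*-/- hosts, the median of 1.30 was 1.08 with median centring, 1.83 in the series matrix, 0.90 with normexp, 1.03 with flags on 1 array or no flags and 0.75 with the brightest probe, and the number lower went from 2 to 1 among genes above the median signal. Those filters change which genes are counted, and otherwise the cause was not tested. Single genes changed sign in CD8+ T cells for *Ptges* (-0.0041 with the brightest probe) and *Cd274* (0.0090 in the series matrix), between cell types in Wt hosts for *Lgals1* (0.47 with quantile normalization and 0.38 in the series matrix) and *Ptges* (-0.005 with normexp), and in *Sipa1*-/- hosts for *Il1rn* (0.15 in the series matrix). In MSCs 63 of 63 single-gene values kept their sign and 57 their side of 2-fold. Against the 75th percentile, median centring moved the median of all genes by -0.14, -0.15, -0.23 and -0.22 (MSC genotype, CD8+ T-cell genotype, cell type in Wt, cell type in *Sipa1*-/-) and the series matrix by 0.21, 0.13, 0.45 and 0.53, so list medians nearer 0 than these have no settled sign. Of the genes past 2-fold, the share that was higher was 63.1% in MSCs, against 54.1% with median centring and 74.1% in the series matrix, and in CD8+ T cells 65.5%, against 52.5% with median centring, 76.3% in the series matrix, 48.9% among genes above the median signal and 52.4% with normexp. Between cell types it was 57.4% in Wt and 54.0% in *Sipa1*-/- hosts, against 45.5% and 42.9% with median centring and 76.6% and 76.3% in the series matrix.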
